A study of Mus musculus with 22 samples.

Results

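The genes described here are 38 genes that build and maintain epithelial sheets. They are genes of the adherens junction, keratins, claudins and other tight junction proteins, desmosomal proteins, and splicing, sorting and membrane protease genes typical of epithelium. The adhesion molecule gene Epcam was listed with the adherens genes and is counted among them below. They were chosen by gene symbol, and all 38 were found among the 26202 symbols of a count table from embryonic mouse trachea. The counts of all entries with the same symbol were summed, which gives each gene 1 value per library. Levels are CPM, the usual scale of counts relative to the library's total count, adjusted with TMM factors over the 18 libraries used.

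The E11.5 libraries came from whole tracheas, 5 pooled per sample: 5 libraries of Wnt5a f/f controls and 4 of Dermo1Cre; Wnt5a f/f embryos, in which Dermo1Cre acts in the mesenchyme. The E13.5 libraries came from cells sorted out of tracheas pooled by litter, 5 tracheas per sample, with 2 control libraries each of epithelium, muscle and chondroblasts and 3 of mutant chondroblasts. The labels give the E13.5 controls as Bmp4 f/f; gamma SMA eGFP or, for 1 of 3 samples in each population, Notum 300/300; gamma SMA eGFP, and the column names do not tell these genotypes apart. The mutant chondroblasts were Notum 150/150; gamma SMA eGFP, for which the labels list 4 samples and 3 columns of the table were matched. All E13.5 groups thus carry the gamma SMA eGFP reporter of smooth muscle. Cells stained with an APC-coupled EpCAM antibody were collected as epithelium, GFP-positive cells as muscle, and cells with neither signal as chondroblasts, so Epcam is the gene of the gate and not a finding. Libraries were made from poly(A) RNA with SMART-Seq v4 and Nextera XT chemistry, which covers full-length transcripts.

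The libraries of a group are called A to E, with no meaning to the order at E11.5. For the sorted controls, A has the earlier and B the later date in its column name, and all 3 Notum libraries have the later date. Notum B and C share a number in their column names, and the labels do not say whether they came from 1 litter. The names of epithelium A and Notum C lack a hyphen after GFP that the others in their group have. The smooth muscle myosin gene Myh11 counted 0.719 CPM in epithelium A and 7.504 CPM in Notum C, against 1931 and 1587 CPM in the muscle libraries. Total counts ran from 6880660 in control E to 21678177 in chondroblast A. A count of 0 allows a level of up to 0.137 to 0.467 CPM, depending on the library (3 counts per library). These limits cover counting error only.

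Epithelial cells hold together through cadherins at adherens junctions, claudins and occludin at tight junctions, and desmosomal cadherins that anchor keratin filaments. In the developing trachea the endoderm-derived tube is such an epithelium, and the mesenchyme around it makes cartilage and smooth muscle. Transcription factors of the Snail and Zeb families repress cadherin, claudin and keratin genes in mesenchymal cells, while Grhl2 and Esrp factors keep the epithelial program on.

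Marker genes were set against the labels of the sorts. The smooth muscle actin gene Acta2 counted 4.89 and 6.90 CPM in epithelium, 7057 and 5117 in muscle and 29.3 and 26.1 in chondroblasts. Col9a1, a collagen of cartilage matrix, counted 30.3 and 37.6 CPM in epithelium, 156 and 361 in muscle and 672 and 445 in chondroblasts. Muscle was high for Acta2 without overlap, and both mesenchymal sorts were above epithelium for Col9a1. Between muscle and chondroblasts, edgeR and DESeq2 called 0 of the 6 chondroblast markers tested. At an unadjusted p under 0.05 and over 1.5-fold, 2 of them were lower in muscle, beside 2.44% of all genes. Epcam counted 522 and 891 CPM in epithelium.

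Neither targeted gene was lower throughout its mutant group. Wnt5a counted 88.0, 159, 84.2, 89.5 and 62.1 CPM in the controls and 46.3, 78.0, 87.7 and 126 in the libraries labelled mutant, and the groups overlapped (log2 -0.20, SE 0.30, edgeR adjusted p = 1.000). Notum counted 13.7 and 86.0 CPM in control chondroblasts and 33.4, 35.3 and 13.7 in the libraries labelled mutant, and these overlapped too (log2 -0.85, SE 0.75, edgeR adjusted p = 0.671). Whether a count over the whole gene reads the deleted stretch was not tested. The names Wnt5a mutant and Notum mutant below follow the labels.

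The summed level of the 38 genes separated the epithelial sort from the rest. It was 7031 ± 791 (SD, n = 2) CPM in epithelium, 289 ± 57.9 (SD, n = 2) in muscle and 235 ± 4.85 (SD, n = 2) in chondroblasts at E13.5. It was 249 ± 25.9 (SD, n = 3) CPM in Notum mutant chondroblasts, 939.5 ± 143 (SD, n = 5) in E11.5 control trachea and 1103 ± 285 (SD, n = 4) in Wnt5a mutant trachea. The whole E11.5 trachea thus lay between the sorted epithelium and the sorted mesenchyme. Fewer cells of a type and less RNA per cell cannot be told apart in bulk samples.

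**Figure D1:**
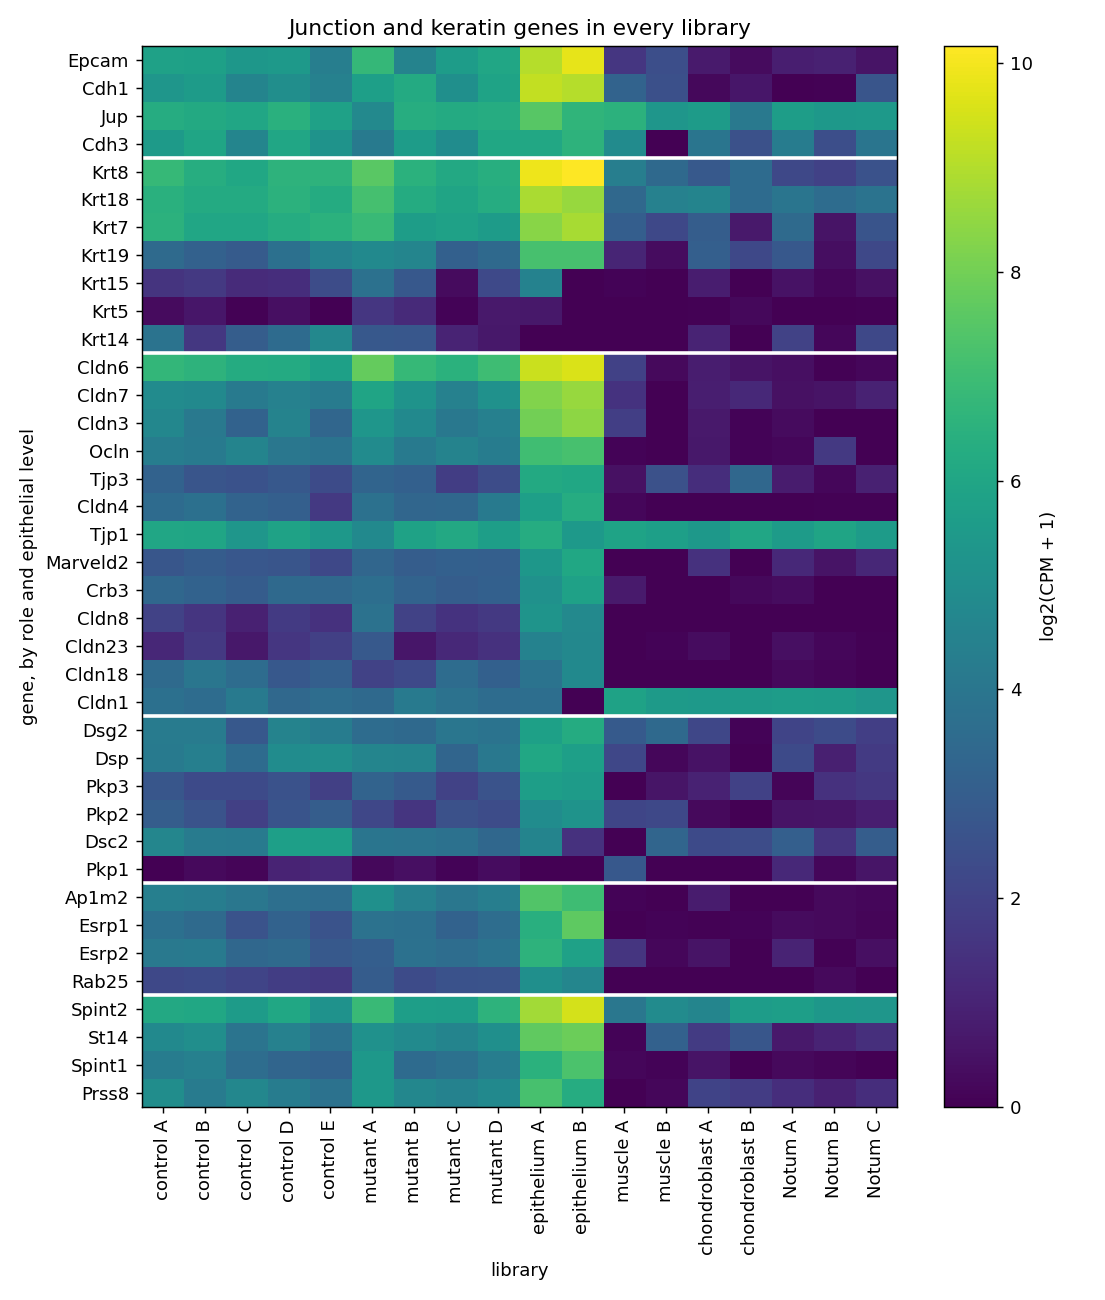
Level of each of the 38 genes, as log2 of CPM + 1, in the 18 libraries, with genes grouped by role. The 2 epithelium columns are at 1 CPM or more for 33 genes, the sorted mesenchymal columns are near 0 for most, and the E11.5 columns lie between.

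The heatmap of all 38 genes shows this order for most genes one by one. Of the 38, 33 were at 1 CPM or more in more than 50% of the epithelium libraries, 11 in muscle, 12 in chondroblasts and 17 in Notum mutant chondroblasts. The share of all genes at that level was not counted, so these counts only describe the members. Krt5, Krt14, Krt15, Cldn1 and Pkp1 did not reach that level in epithelium. Per kilobase of transcript, mean epithelial levels were 539.7 CPM for Krt8, 438 for Cldn6, 420.4 for Spint2, 346 for Epcam, 299 for Krt18, 257 for Cldn7, 237 for Cldn3 and 127 for Cdh1. On that scale the keratin pair of simple epithelia and a few claudins stood above the cadherin, and genes were compared on it alone.

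The first comparison asked how far the E13.5 epithelium differs from the muscle and chondroblast sorts. Of the 38 genes, 34 passed the filter on low counts and 17 of these passed only through the epithelium libraries, where they are high, so those 17 had to differ and nothing is read from the member counts that follow. They were Cldn3, Cldn4, Cldn6, Cldn7, Cldn8, Cldn18, Cldn23, Ocln, Marveld2, Dsp, Pkp3, Esrp1, Esrp2, Rab25, Spint1, Ap1m2 and Crb3, and their p-values below add nothing to their values. Krt5, Krt14, Krt15 and Pkp1 did not pass and were not tested. Against muscle, edgeR's quasi-likelihood test called 18 members higher and 0 lower at an adjusted p under 0.05, beside 1.17% and 2.41% of all 13687 genes tested. With an unadjusted p under 0.05 and more than 1.5-fold, 28 were higher and 0 lower, beside 7.53% and 10.1% of all genes. DESeq2 called 28 higher and 0 lower, beside 5.37% and 7.98% of all genes. Against chondroblasts, edgeR called 18 higher and 0 lower, beside 1.02% and 1.72% of all genes. With an unadjusted p under 0.05 and more than 1.5-fold, 30 were higher and 0 lower there, beside 6.66% and 9.09% of all genes. DESeq2 called 29 higher and 0 lower against chondroblasts, beside 4.46% and 6.9% of all genes. The p-values here and below set a difference against the spread between these libraries. In the control sorts the 2 libraries differ in date and may differ in genotype, and the main fit has no term for date. Both comparisons share the epithelium libraries and 1 fit with a biological coefficient of variation of 66.8%. Leaving out 1 library leaves its group with a lone sample, which is then assumed to vary like the other groups. The count of 18 against muscle became 11 without muscle A, and named genes that lost or gained a call this way are given with their values under their role. The range of adjusted p over the alternatives stands beside them, and its very low ends came from the fit without a filter on low counts in the comparisons among sorts and from DESeq2 in the comparison of stages. Against chondroblasts the 18 became 10 without epithelium B, 7 without chondroblast A and 3 without chondroblast B.

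In the adherens list, Cdh1 and the gate gene Epcam were high only in the epithelial sort at E13.5, while Cdh3 and Jup were also counted in mesenchymal libraries. Cdh1, the cadherin that defines epithelial adherens junctions, counted 599 and 522 CPM in epithelium, 8.497 and 4.60 in muscle and 0.152 and 0.523 in chondroblasts. Both epithelium libraries were far above all others, and the muscle libraries were above the chondroblast libraries. The difference from muscle (log2 6.43, SE 0.50, edgeR adjusted p = 0.00369) and from chondroblasts (log2 10.80, SE 0.63, edgeR adjusted p = 0.00565) passed the test. Epcam, the adhesion molecule of the gate, counted 522 and 891 CPM in epithelium, 2.02 and 4.47 in muscle and 0.658 and 0.224 in chondroblasts. Its levels in the 2 EpCAM-negative sorts were traces that did not overlap with each other or with epithelium. Cdh3, a classical cadherin of placenta and many epithelia, counted 66.7 and 95.1 CPM in epithelium, 28.7 and 0 in muscle and 14.5 and 4.71 in chondroblasts. Muscle A held much Cdh3 and muscle B none, and the differences from muscle (log2 2.50, SE 1.88, edgeR adjusted p = 0.546) and chondroblasts (log2 3.09, SE 1.92, edgeR adjusted p = 0.508) did not pass. For Cdh3 against muscle, leaving out muscle A gave an adjusted p of 0.0463 (range 0.00192 to 0.725 over 13 alternatives). Jup, plakoglobin, which serves both adherens junctions and desmosomes, counted 181 and 98.7 CPM in epithelium, 92.2 and 39.6 in muscle and 46.8 and 16.3 in chondroblasts. Epithelium was higher, with muscle A close to epithelium B, and neither the difference from muscle (log2 1.10, SE 0.64, edgeR adjusted p = 0.426) nor that from chondroblasts (log2 2.17, SE 0.66, edgeR adjusted p = 0.172) passed. Of these 4 genes edgeR called Cdh1 and Epcam against each sort, and DESeq2 called Jup as well against chondroblasts.

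The keratins of simple epithelia were high in both libraries of E13.5 epithelium, and the basal-cell keratins Krt5 and Krt14 were under 1 CPM in both. Krt8, a type II keratin of simple epithelia, counted 964 and 1149 CPM in epithelium, 19.3 and 10.3 in muscle and 6.22 and 10.6 in chondroblasts. Krt18, its type I partner in the filament, counted 470.2 and 389 CPM in epithelium, 9.68 and 21.3 in muscle and 23.0 and 10.6 in chondroblasts. For both partners the epithelium libraries were far above the others, and muscle and chondroblasts overlapped. Krt8 passed against muscle (log2 6.17, SE 0.45, edgeR adjusted p = 0.00316) and chondroblasts (log2 7.00, SE 0.47, edgeR adjusted p = 0.00665). Krt18 passed against muscle (log2 4.80, SE 0.55, edgeR adjusted p = 0.0107) and chondroblasts (log2 4.69, SE 0.55, edgeR adjusted p = 0.0130) in the full set of libraries. For Krt18 against muscle, leaving out muscle A gave an adjusted p of 0.0515 (range 3.32e-42 to 0.0515 over 13 alternatives), and against chondroblasts, leaving out chondroblast A or chondroblast B in turn gave an adjusted p of 0.0643 and 0.0792 (range 2.53e-40 to 0.0792 over 13 alternatives). Krt7, a keratin of glandular and ductal epithelia, counted 327 and 452 CPM in epithelium, 7.25 and 3.59 in muscle and 7.08 and 0.597 in chondroblasts. Epithelium was above every other library, and the mesenchymal sorts overlapped. Krt7 passed against muscle (log2 6.17, SE 1.05, edgeR adjusted p = 0.0329) and chondroblasts (log2 6.64, SE 1.08, edgeR adjusted p = 0.0339). For Krt7 against muscle, leaving out epithelium B, muscle A or muscle B in turn gave an adjusted p of 0.0765, 0.150 and 0.196 (range 1.53e-56 to 0.196 over 13 alternatives), and against chondroblasts, leaving out epithelium B, muscle A, muscle B or chondroblast B in turn gave an adjusted p of 0.0809, 0.0645, 0.0611 and 0.0527 (range 3.43e-62 to 0.0809 over 13 alternatives). Krt14, the type I keratin of basal cells, counted 0 and 0 CPM in epithelium, 0 and 0 in muscle and 1.01 and 0 in chondroblasts, so only chondroblast A held any among these control sorts. Of the 7 keratins 4 were tested, and edgeR and DESeq2 each called all 4 (Krt7, Krt8, Krt18, Krt19) higher in epithelium against both sorts. Krt15, another basal-cell keratin, counted 22.04 and 0 CPM in the epithelium libraries, which differ in date, and Krt5, the basal-cell partner of Krt14, 0.575 and 0 CPM.

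The claudins Cldn3, Cldn6 and Cldn7 were abundant in epithelium and close to absent elsewhere, and the scaffold gene Tjp1 did not separate the sorts. Cldn6, a claudin of embryonic epithelia, counted 649 and 772 CPM in epithelium, 2.91 and 0.189 in muscle and 0.759 and 0.448 in chondroblasts. Cldn7, a claudin that also lies along lateral membranes, counted 303 and 382 CPM in epithelium, 1.84 and 0 in muscle and 0.809 and 1.27 in chondroblasts. Cldn3, a barrier-forming claudin, counted 252 and 345 CPM in epithelium, 2.73 and 0 in muscle and 0.607 and 0.0747 in chondroblasts. All 3 claudins were high in both epithelium libraries, and their mesenchymal values overlapped. All 3 are among the 17 genes that entered the test through epithelium alone. Cldn6 passed against muscle (log2 8.83, SE 1.04, edgeR adjusted p = 0.0115) and chondroblasts (log2 10.16, SE 1.11, edgeR adjusted p = 0.0120). For Cldn6 against chondroblasts, leaving out chondroblast A or chondroblast B in turn gave an adjusted p of 0.114 and 0.111 (range 8.70e-133 to 0.114 over 13 alternatives). Cldn7 passed against muscle (log2 8.52, SE 1.22, edgeR adjusted p = 0.0192) and chondroblasts (log2 8.40, SE 1.21, edgeR adjusted p = 0.0238) with all libraries in the fit. For Cldn7 against muscle, leaving out epithelium B, chondroblast A or chondroblast B in turn gave an adjusted p of 0.0515, 0.0560 and 0.0507 (range 1.94e-76 to 0.0560 over 13 alternatives), and against chondroblasts, leaving out epithelium B, chondroblast A or chondroblast B in turn gave an adjusted p of 0.0668, 0.191 and 0.171 (range 8.32e-75 to 0.191 over 13 alternatives). Cldn3 likewise passed against muscle (log2 7.76, SE 1.42, edgeR adjusted p = 0.0405) and chondroblasts (log2 9.63, SE 1.58, edgeR adjusted p = 0.0350). For Cldn3 against muscle, leaving out epithelium B, chondroblast A or chondroblast B in turn gave an adjusted p of 0.104, 0.0844 and 0.0777 (range 6.86e-63 to 0.104 over 13 alternatives), and against chondroblasts, leaving out epithelium B, chondroblast A or chondroblast B in turn gave an adjusted p of 0.0883, 0.186 and 0.225 (range 2.88e-78 to 0.225 over 13 alternatives).

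Among the cytoplasmic tight junction proteins, Tjp3 followed the claudins and Tjp1 did not. Tjp1, a scaffold that many cell types use beside epithelium, counted 77.9 and 44.2 CPM in epithelium, 59.3 and 52.6 in muscle and 41.8 and 64.2 in chondroblasts. The sorts overlapped, and the differences from muscle (log2 0.14, SE 0.40, edgeR adjusted p = 0.895) and chondroblasts (log2 0.22, SE 0.40, edgeR adjusted p = 0.842) did not pass. The sign turned against muscle without epithelium A (log2 -0.35) and against chondroblasts without epithelium A or chondroblast A (log2 -0.26 and -0.04). Tjp3, a related scaffold found mainly in epithelia, counted 70.8 and 65.4 CPM in epithelium, 0.357 and 4.72 in muscle and 1.52 and 9.49 in chondroblasts. Epithelium was above both sorts, within which the B libraries were higher, and neither the difference from muscle (log2 4.75, SE 1.41, edgeR adjusted p = 0.144) nor that from chondroblasts (log2 3.65, SE 1.34, edgeR adjusted p = 0.246) passed in edgeR. Of the 13 tight junction genes, all tested, edgeR called 6 higher against each sort (Cldn3, Cldn4, Cldn6, Cldn7, Cldn8, Ocln), all among those 17, and DESeq2 called 11 against muscle and 10 against chondroblasts. Cldn1, a claudin outside the naming rule and chosen after its values were seen, ran the other way at 11.8 and 0 CPM in epithelium, 56.5 and 46.1 in muscle and 42.8 and 45.3 in chondroblasts. Its mesenchymal values were all above both epithelial values, and neither edgeR in the main fit nor DESeq2 called it. Without epithelium A, which held the epithelial counts, edgeR called it lower against each sort (1 member). It did so too without a filter on low counts against each sort, and in 1 fit of all 18 libraries against muscle.

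Among the desmosomal genes Dsc2 overlapped between the sorts, unlike Dsp, Pkp3 and Dsg2. Dsp, desmoplakin, which ties the desmosome to keratin filaments, counted 65.1 and 51.8 CPM in epithelium, 3.45 and 0.126 in muscle and 0.405 and 0 in chondroblasts. Pkp3, a plakophilin of the desmosomal plaque, counted 50.8 and 47.3 CPM in epithelium, 0 and 0.504 in muscle and 0.961 and 2.91 in chondroblasts. Dsg2, the desmoglein of simple epithelia and heart, counted 54.3 and 74.6 CPM in epithelium, 6.30 and 10.1 in muscle and 3.54 and 0.0747 in chondroblasts. For these 3 genes epithelium was above every mesenchymal library, and Dsg2 was counted in both muscle libraries. Dsp and Pkp3 entered the test through epithelium alone. In edgeR the differences from muscle did not pass for Dsp (log2 5.03, SE 1.67, edgeR adjusted p = 0.184), Pkp3 (log2 7.59, SE 1.62, edgeR adjusted p = 0.0640) or Dsg2 (log2 2.98, SE 1.29, edgeR adjusted p = 0.288). Against chondroblasts they did not pass either, for Dsp (log2 8.04, SE 1.96, edgeR adjusted p = 0.103), Pkp3 (log2 4.69, SE 1.39, edgeR adjusted p = 0.164) or Dsg2 (log2 5.14, SE 1.43, edgeR adjusted p = 0.141). Dsc2, a desmosomal cadherin of simple epithelia and heart, counted 23.1 and 1.76 CPM in epithelium, 0 and 9.01 in muscle and 3.89 and 4.11 in chondroblasts. Its sorts overlapped and its 2 epithelium libraries differed widely, with no pass against muscle (log2 1.48, SE 2.23, edgeR adjusted p = 0.774) or chondroblasts (log2 1.66, SE 2.25, edgeR adjusted p = 0.784). Without epithelium A the Dsc2 difference turned to log2 -1.36 against muscle and -1.18 against chondroblasts. Of the 5 desmosomal genes tested edgeR called 0 against muscle and 1 (Pkp2) against chondroblasts, with 3 and 4 at an unadjusted p under 0.05 and the same 3 and 4 in number by DESeq2.

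The splicing and sorting genes were close to absent from the mesenchymal sorts. Esrp1, a splicing regulator that sets epithelial isoforms, counted 85.1 and 198 CPM in epithelium, 0 and 0.0630 in muscle and 0.0506 and 0.0747 in chondroblasts. Its paralog Esrp2 counted 93.9 and 55.0 CPM in epithelium, 1.96 and 0.126 in muscle and 0.455 and 0 in chondroblasts. Ap1m2, the epithelial subunit of the AP-1 adaptor for basolateral sorting, counted 167 and 128 CPM in epithelium, 0.0594 and 0 in muscle and 0.708 and 0 in chondroblasts. All 3 were high in both epithelium libraries and near 0 in the other sorts, and all 3 entered the test through epithelium alone. Esrp1 passed against muscle (log2 11.87, SE 0.94, edgeR adjusted p = 0.00398) and chondroblasts (log2 11.04, SE 0.89, edgeR adjusted p = 0.00707). For Esrp1 against chondroblasts, leaving out chondroblast A or chondroblast B in turn gave an adjusted p of 0.0643 and 0.0565 (range 3.36e-38 to 0.0643 over 13 alternatives). Ap1m2 passed against muscle (log2 11.94, SE 1.43, edgeR adjusted p = 0.0117) and chondroblasts (log2 8.56, SE 1.14, edgeR adjusted p = 0.0197) as well. For Ap1m2 against muscle, leaving out muscle A or muscle B in turn gave an adjusted p of 0.0774 and 0.0796 (range 1.38e-42 to 0.0796 over 13 alternatives), and against chondroblasts, leaving out chondroblast B gave an adjusted p of 0.0527 (range 1.26e-33 to 0.0527 over 13 alternatives). Esrp2 did not pass against muscle (log2 6.15, SE 1.57, edgeR adjusted p = 0.101) or chondroblasts (log2 8.22, SE 1.75, edgeR adjusted p = 0.0756). Of these 4 genes edgeR called 3 against muscle, Rab25 among them, and 2 against chondroblasts, each 1 of the 17 that entered through epithelium alone, and DESeq2 called 4 against each.

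The membrane protease genes form a known circuit of the epithelial surface, with the proteases St14 and Prss8 and the inhibitors Spint1 and Spint2. Spint2, an inhibitor of both proteases, counted 436 and 728 CPM in epithelium, 15.2 and 28.6 in muscle and 23.8 and 48.1 in chondroblasts. Spint1, the other inhibitor, counted 89.5 and 157 CPM in epithelium, 0.119 and 0.0630 in muscle and 0.455 and 0 in chondroblasts. St14, matriptase, counted 202 and 235 CPM in epithelium, 0.0594 and 7.81 in muscle and 2.38 and 5.60 in chondroblasts. Epithelium was above all other libraries for each, and Spint2 kept a clear level in both mesenchymal sorts. Spint2 passed against muscle (log2 4.74, SE 0.53, edgeR adjusted p = 0.00967) and chondroblasts (log2 4.03, SE 0.51, edgeR adjusted p = 0.0160). For Spint2 against muscle, leaving out muscle A gave an adjusted p of 0.0633 (range 1.43e-47 to 0.0633 over 13 alternatives), and against chondroblasts, leaving out chondroblast A or chondroblast B in turn gave an adjusted p of 0.106 and 0.0709 (range 1.43e-36 to 0.106 over 13 alternatives). Spint1, which entered the test through epithelium alone, passed against muscle (log2 10.29, SE 1.22, edgeR adjusted p = 0.0117) and chondroblasts (log2 8.91, SE 1.12, edgeR adjusted p = 0.0157). For Spint1 against muscle, leaving out muscle A or muscle B in turn gave an adjusted p of 0.0802 and 0.0820 (range 3.50e-30 to 0.0820 over 13 alternatives), and against chondroblasts, leaving out epithelium B or chondroblast B in turn gave an adjusted p of 0.0578 and 0.0527 (range 8.93e-27 to 0.0578 over 13 alternatives). St14 did not pass against muscle (log2 5.81, SE 1.51, edgeR adjusted p = 0.106) or chondroblasts (log2 5.81, SE 1.51, edgeR adjusted p = 0.122) with all libraries. For St14 against muscle, leaving out muscle B gave an adjusted p of 0.0210 (range 2.28e-33 to 0.205 over 13 alternatives), and against chondroblasts, leaving out muscle A or muscle B in turn gave an adjusted p of 0.0182 and 0.0173 (range 4.34e-33 to 0.441 over 13 alternatives). Of the 4 genes edgeR called 3 (Prss8, Spint1, Spint2) and DESeq2 all 4 against each sort.

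The promoters of the 38 genes were searched for motifs, since most of these genes were high together, and 8 promoters chosen after values were seen are shown. RefSeq promoters of 300 bases (GRCm38.p6, 250 bases before to 50 after the start) were available for 23 of the 38 genes. The hexamer CAGGTG, read as CACCTG on the other strand, is the E-box that Snail and Zeb factors are known to bind. It stood on either strand in the promoters of 17 of the 23 genes (73.9%), against 22.6% of 27025 gene symbols with a promoter. By promoter the counts were 21 of 29 for these genes and 20.2% of 32851 for all. The GC box GGGCGG stood in 15 of the 23 genes (65.2%, against 38.2% of all symbols) and the grainyhead-type motif AACCGGTT in 0 of 23 (0.2% of all symbols). The first 6 sequences hold the E-box, in capitals, and belong to keratins, claudins and the gate gene that were high in epithelium. The last 2 do not hold it and belong to Krt14 and Cldn1, which were not on in both epithelium libraries. Krt8 is at chr15:102004293-102004592 (- strand), Krt18 at chr15:102027966-102028265 (+), Cldn3 at chr5:134985964-134986263 (+), Cldn4 at chr5:134946885-134947184 (-), Cldn6 at chr17:23679115-23679414 (+), Epcam at chr17:87635729-87636028 (+), Krt14 at chr11:100205981-100206280 (-) and Cldn1 at chr16:26371790-26372089 (-). The RefSeq start in the Krt14 window lies 1518 bases inside the gene as GENCODE annotates it, and those of the other 7 at most 140. A match is a description of letters and not a site, and whether any factor binds there was not tested.
Krt8: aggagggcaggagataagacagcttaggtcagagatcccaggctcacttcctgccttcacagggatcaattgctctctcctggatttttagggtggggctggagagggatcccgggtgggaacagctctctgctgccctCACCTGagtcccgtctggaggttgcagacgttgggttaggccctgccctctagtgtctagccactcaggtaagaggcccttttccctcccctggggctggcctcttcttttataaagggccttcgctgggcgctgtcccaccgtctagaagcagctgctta
Krt18: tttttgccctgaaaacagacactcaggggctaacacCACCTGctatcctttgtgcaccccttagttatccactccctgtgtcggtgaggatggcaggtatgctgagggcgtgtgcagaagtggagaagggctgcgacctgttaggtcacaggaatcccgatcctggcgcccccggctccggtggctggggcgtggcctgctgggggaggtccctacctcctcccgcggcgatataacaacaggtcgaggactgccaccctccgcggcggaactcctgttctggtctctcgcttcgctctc
Cldn3: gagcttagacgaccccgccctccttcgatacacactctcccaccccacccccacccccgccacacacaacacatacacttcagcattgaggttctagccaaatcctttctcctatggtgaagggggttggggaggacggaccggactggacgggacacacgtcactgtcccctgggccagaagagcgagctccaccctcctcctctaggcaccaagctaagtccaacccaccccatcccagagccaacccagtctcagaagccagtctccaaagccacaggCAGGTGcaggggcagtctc
Cldn4: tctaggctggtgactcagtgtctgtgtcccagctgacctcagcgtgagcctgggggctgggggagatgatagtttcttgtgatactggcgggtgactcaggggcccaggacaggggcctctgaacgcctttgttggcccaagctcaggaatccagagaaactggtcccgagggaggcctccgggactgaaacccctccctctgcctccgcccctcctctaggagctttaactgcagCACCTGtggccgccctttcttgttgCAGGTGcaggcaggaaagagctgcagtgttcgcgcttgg
Cldn6: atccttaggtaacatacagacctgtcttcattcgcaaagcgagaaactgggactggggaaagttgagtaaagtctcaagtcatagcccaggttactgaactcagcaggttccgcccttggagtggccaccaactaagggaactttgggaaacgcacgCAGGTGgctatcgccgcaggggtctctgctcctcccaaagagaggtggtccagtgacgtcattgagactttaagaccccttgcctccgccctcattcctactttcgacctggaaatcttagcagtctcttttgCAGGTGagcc
Epcam: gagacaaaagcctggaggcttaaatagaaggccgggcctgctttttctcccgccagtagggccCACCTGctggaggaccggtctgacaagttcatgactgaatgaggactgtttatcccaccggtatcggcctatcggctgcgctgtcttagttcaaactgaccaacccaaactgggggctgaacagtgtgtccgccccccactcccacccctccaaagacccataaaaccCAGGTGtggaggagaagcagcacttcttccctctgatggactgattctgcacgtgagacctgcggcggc
Krt14: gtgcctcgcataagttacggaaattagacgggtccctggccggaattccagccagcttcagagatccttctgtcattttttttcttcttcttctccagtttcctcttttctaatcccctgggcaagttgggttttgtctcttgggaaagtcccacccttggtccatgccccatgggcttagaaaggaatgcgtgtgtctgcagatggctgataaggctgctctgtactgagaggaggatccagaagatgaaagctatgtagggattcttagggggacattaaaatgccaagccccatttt
Cldn1: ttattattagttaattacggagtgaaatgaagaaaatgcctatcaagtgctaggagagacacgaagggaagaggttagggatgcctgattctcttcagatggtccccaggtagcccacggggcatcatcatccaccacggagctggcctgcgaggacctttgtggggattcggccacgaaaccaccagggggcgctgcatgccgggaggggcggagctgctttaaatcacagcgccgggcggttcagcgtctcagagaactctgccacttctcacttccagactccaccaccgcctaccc

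The other genes without the E-box letters in any promoter of the table were Cldn18, Jup, Spint1 and Tjp1, all 4 on in both epithelium libraries, and Krt5, which was not on there, holds the letters. The 8 sequences shown are thus not a tally of the 23 genes. No promoter was listed for Krt15, Pkp2, Cdh1, Pkp3, Krt19, Prss8, Cldn23, Cldn8, Cdh3, St14, Dsc2, Pkp1, Esrp2, Dsg2 and Esrp1. Several of the 38 genes are neighbours in the GENCODE annotation of GRCm38: Krt8 and Krt18 lie 23.7 kb apart on chromosome 15, Cldn4 and Cldn3 39.3 kb on chromosome 5, Cdh3 and Cdh1 46.1 kb on chromosome 8 and Ocln and Marveld2 43.2 kb on chromosome 13. On chromosome 11, Krt15 and Krt19 lie 4.9 kb apart and Krt19 and Krt14 54.5 kb, yet Krt19 counted 145 and 145 CPM and Krt14 0 and 0 CPM in the epithelium libraries.

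The trace in the mesenchymal sorts was described for each of the 33 genes at 1 CPM or more in both epithelium libraries, as the mean level in a sort in percent of the epithelial mean. The median share was 0.513% in muscle, 0.346% in chondroblasts and 0.623% in Notum mutant chondroblasts. In muscle 18 genes were under 1%, 9 between 1% and 10%, and 6 at 10% or more. In chondroblasts the counts were 20, 9 and 4, and in Notum mutant chondroblasts 19, 10 and 4. These 33 genes entered by their level in epithelium, so low shares follow in part from the choice. Cldn1, at 0 CPM in epithelium B, was left out. Its mean was 51.3 CPM in muscle and 44.0 in chondroblasts, against 5.92 in epithelium. Among the 33, the highest shares belonged to scaffold, plaque and cadherin genes. Tjp1 had 91.7% of its epithelial level in muscle and 86.9% in chondroblasts, Jup 47.1% and 22.5%, Dsc2 36.2% and 32.1%, and Cdh3 17.7% and 11.9%. Dsg2 had 12.7% in muscle and 2.81% in chondroblasts, and Pkp2, the plakophilin shared with heart and mesenchymal cells, 10.6% and 0.304%. Spint2 had 3.76% and 6.18%, and Tjp3 3.73% and 8.08%. At the other end Cldn8, Cldn18 and Rab25 counted 0 in all 4 control libraries of muscle and chondroblasts. Cldn8 was therefore at least 174.7-fold higher in epithelium than in muscle, Cldn18 at least 112-fold and Rab25, a GTPase of apical recycling, at least 154-fold. Within the earlier date the median share was 0.504% in muscle and 0.645% in chondroblasts, and within the later date 0.229% and 0.100%. For Dsc2 the share was 0% in muscle and 16.8% in chondroblasts within the earlier date and 512% and 234% within the later, and for Tjp1 76.2% and 53.7% against 119% and 145.5%. Cdh3 in muscle had 43.0% within the earlier date and 0% within the later. The muscle median became 0.174% without muscle A, and the chondroblast median became 0.0933% without chondroblast A, 0.579% without epithelium B and 0.611% without chondroblast B.

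**Figure D2:**
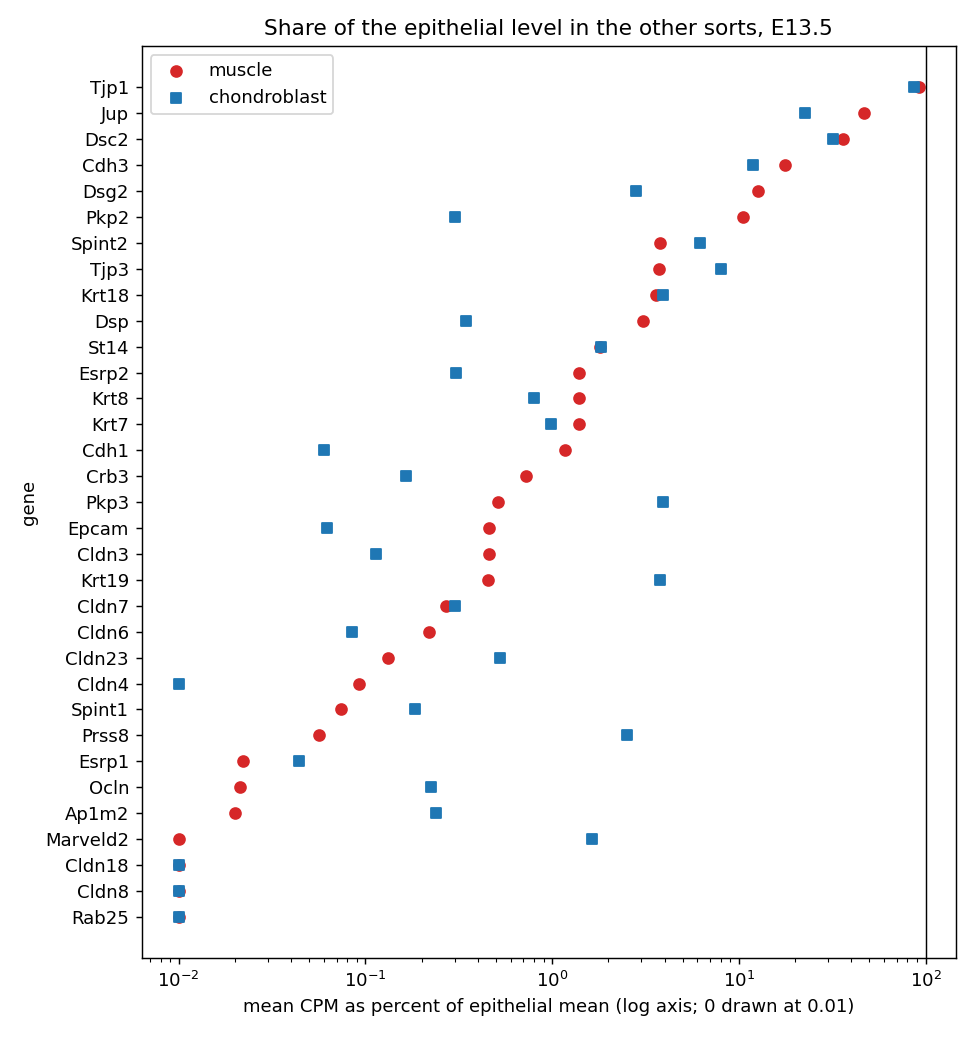
Mean level of 33 genes in muscle (circles) and chondroblasts (squares) in percent of their mean in epithelium, on a log axis, with values of 0 drawn at 0.01 and a line at 100%. Tjp1 lies next to the line, and 18 genes in muscle and 20 in chondroblasts lie under 1%. Cldn1, which was higher in both sorts than in epithelium, is not among the 33.

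The plot of shares sets the genes with a high share in the mesenchymal sorts apart from those close to absent there. Markers of epithelium outside the 38 genes showed traces as well: Foxa2, an endodermal transcription factor, counted 1.72 and 0 CPM in muscle and 0.0506 and 0.149 in chondroblasts, against 193 and 170.2 in epithelium. Nkx2-1, the factor of lung, trachea and thyroid endoderm, counted 1.07 and 4.47 CPM in muscle, 0.860 and 10.2 in chondroblasts and 60.4 and 146 in epithelium. Foxa2 was near 0 in 3 of these 4 mesenchymal libraries, and Nkx2-1 was highest among them in chondroblast B. The part of sorted-in epithelial cells in the trace was not tested.

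Muscle and chondroblasts were then compared with each other, to ask whether the trace differs between the EpCAM-negative sorts. Cdh1 and Epcam were higher in both muscle libraries than in both chondroblast libraries, with the values given above, but no member was called by edgeR. It called 0 members higher and 0 lower in muscle, beside 0.132% and 0.0% of all genes. At an unadjusted p under 0.05, each also over 1.5-fold, 3 were higher (Cdh1, Epcam, Pkp2) and 4 lower (Krt19, Marveld2, Ocln, Prss8), beside 3.03% and 2.44% of all genes. DESeq2 called 3 higher (Cdh1, Epcam, Pkp2) and 2 lower (Krt19, Prss8), beside 1.39% and 0.507% of all genes. In edgeR the difference was log2 4.37 for Cdh1 (SE 0.55, adjusted p = 0.0808) and log2 2.78 for Epcam (SE 0.61, adjusted p = 0.405). Over the 34 members tested the median was 0.04, beside 0.00 over all genes, with 17 above and 14 below 0. The 34 include the 17 genes that passed the filter through epithelium alone. Those are traces in both sorts, so nothing is read from this median or these signs. The 3 genes at 0 in both sorts have no direction, and Cldn4 (0 in chondroblasts) and Marveld2 (0 in muscle) have a fitted value that is no bound. This comparison shares its libraries with both comparisons of epithelium.

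The next question was which genes are on at E11.5 and off by E13.5, where on means 1 CPM or more in more than 50% of a group's libraries. At E11.5, 36 of the 38 genes were on in control trachea and 36 in Wnt5a mutant trachea, and Krt5 and Pkp1 were not on in either. No gene was on in E11.5 controls and under 1 CPM in every E13.5 library (0 of 36), and none in every E13.5 control library (0 of 36). 1 gene, Krt14, was on in E11.5 controls and under 1 CPM in both E13.5 epithelium libraries. These calls were not made over all genes, so no share of all genes stands beside the counts. Whole trachea also holds cells that the epithelial sort leaves out, and nothing is read from the counts. Krt14 counted 13.501, 2.16, 7.03, 10.7 and 25.7 CPM in the E11.5 controls, 0 and 0 in E13.5 epithelium, 0 and 0 in muscle, 1.01 and 0 in chondroblasts and 3.05, 0.146 and 3.65 in Notum mutant chondroblasts. All 5 control tracheas held Krt14, no E13.5 epithelium or muscle library did, and 2 of the 3 Notum mutant libraries were above 3 CPM. Its mean was at least 69.7-fold lower in E13.5 epithelium than in E11.5 controls. Chondroblast A decided the count over E13.5 controls: at 1.01 CPM it kept Krt14 from being under 1 CPM in all of them, and on CPM by library size alone its value was 0.923 and the count became 1. Without epithelium A the count over every E13.5 library became 1 as well (Krt15). In the other direction, 0 genes were on in both epithelium libraries and under 1 CPM in every E11.5 control library. Krt15 counted 1.85, 2.21, 1.39, 1.52 and 4.20 CPM in the E11.5 controls, against 22.04 and 0 in E13.5 epithelium. Cldn1 counted 12.6, 11.03, 16.8, 9.86 and 11.4 CPM in the E11.5 controls, and it was on in both mesenchymal sorts at E13.5.

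Levels in sorted E13.5 epithelium were also compared with whole E11.5 control trachea, where stage, cell composition and the sort cannot be told apart. Most of the 38 genes were higher in the sorted epithelium, and Krt14 was lower. Of the 38 genes, 36 passed the filter, and Krt14, Krt15 and Cldn1 passed only through the E11.5 libraries, so nothing is read from the counts over members or from the call of Krt14. edgeR called 29 higher and 1 lower (Krt14), beside 7.65% and 9.41% of all 14628 genes tested. With an unadjusted p under 0.05 and more than 1.5-fold, 30 were higher and 1 lower, beside 13.1% and 16.9% of all genes. DESeq2 called 29 higher and 1 lower, beside 10.8% and 17.2% of all genes. Without epithelium A the count of lower members became 4 (Cldn1, Dsc2, Krt14, Krt15). The 29 were 3 of 4 genes of the adherens list (Cdh1, Jup and the gate gene Epcam), 4 of 6 keratins tested and 10 of 13 tight junction genes. They were also 4 of 5 desmosomal genes tested and all 8 splicing, sorting and protease genes.

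For the adherens genes and for Krt7, Krt8, Krt18 and Krt19 the E11.5 values were lower than the E13.5 epithelial values given above. Krt15 overlapped between the groups. Cdh1 counted 39.9, 47.0, 23.1, 31.7 and 21.002 CPM in the E11.5 controls (log2 4.10, SE 0.29, edgeR adjusted p = 2.91e-04). Epcam counted 54.9, 54.1, 40.8, 44.5 and 19.1 CPM (log2 4.04, SE 0.36, edgeR adjusted p = 4.74e-04). Both cadherin and gate gene were lower in all 5 control tracheas than in either epithelium library. Cdh3 counted 45.9, 61.6, 23.8, 63.2 and 36.7 CPM, below both epithelium libraries but without a pass (log2 0.81, SE 0.35, edgeR adjusted p = 0.154). Jup counted 77.5, 70.7, 63.1, 86.0 and 55.5 CPM (log2 0.99, SE 0.25, edgeR adjusted p = 0.0299), with every control below both epithelium libraries. For Jup, leaving out control A, control B, control C, control E or epithelium A in turn gave an adjusted p of 0.0615, 0.0544, 0.0703, 0.0538 and 0.148 (range 0.00530 to 0.148 over 13 alternatives), and 1 fit of all 18 libraries gave 0.0922. Krt8 counted 110.1, 79.9, 65.2, 93.9 and 93.5 CPM (log2 3.58, SE 0.20, edgeR adjusted p = 1.49e-04). Krt18 counted 86.1, 73.7, 72.3, 90.4 and 74.8 CPM (log2 2.43, SE 0.15, edgeR adjusted p = 1.49e-04). Both partners of the filament were below epithelium in all 5 control tracheas. Krt7 counted 90.7, 63.9, 63.6, 77.1 and 89.0 CPM in the controls (log2 2.34, SE 0.20, edgeR adjusted p = 4.27e-04), again without overlap. Krt14 ran the other way with the values given above. Its test (log2 -10.58, SE 1.79, edgeR adjusted p = 0.00883) adds nothing to them, since the gene was named for this difference and passed the filter through E11.5 alone, and the fitted log2 is no bound because epithelium is at 0.

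Of the tight junction and desmosomal genes tested in the same comparison, Cldn1, Cldn18, Tjp1 and Dsc2 overlapped between the groups. Cldn6 counted 106, 94.2, 76.3, 73.2 and 53.4 CPM in the E11.5 controls (log2 3.14, SE 0.23, edgeR adjusted p = 3.13e-04). Cldn7 counted 29.0, 27.0, 16.6, 21.2 and 17.9 CPM (log2 3.94, SE 0.23, edgeR adjusted p = 1.49e-04). Cldn3 counted 24.8, 16.1, 8.15, 22.4 and 9.18 CPM (log2 4.20, SE 0.41, edgeR adjusted p = 6.02e-04). None of the 3 claudins overlapped between the groups. Tjp3 counted 8.17, 5.46, 4.95, 5.93 and 4.04 CPM (log2 3.57, SE 0.28, edgeR adjusted p = 3.67e-04), also without overlap. Tjp1 counted 63.8, 62.3, 39.5, 57.6 and 42.2 CPM (log2 0.20, SE 0.28, edgeR adjusted p = 0.655), overlapped with epithelium and turned to log2 -0.28 without epithelium A. Dsp, the keratin anchor, counted 17.2, 19.7, 10.8, 29.8 and 31.1 CPM (log2 1.43, SE 0.38, edgeR adjusted p = 0.0380), with all controls below epithelium. For Dsp, leaving out control A, control B, control D, epithelium A or epithelium B in turn gave an adjusted p of 0.0904, 0.0703, 0.0565, 0.0618 and 0.0572 (range 0.00959 to 0.167 over 13 alternatives), and 1 fit of all 18 libraries gave the highest, 0.167. Dsg2 counted 18.02, 17.6, 5.97, 22.3 and 18.2 CPM (log2 1.97, SE 0.42, edgeR adjusted p = 0.0153), and for it leaving out epithelium B gave an adjusted p of 0.0572 (range 4.88e-04 to 0.0572 over 13 alternatives). Pkp3 counted 5.50, 3.91, 3.84, 4.89 and 2.80 CPM (log2 3.54, SE 0.31, edgeR adjusted p = 4.56e-04), without overlap. Dsc2 counted 24.7, 17.9, 17.3, 51.8 and 50.9 CPM and overlapped with epithelium (log2 -1.38, SE 0.90, edgeR adjusted p = 0.327). For Dsc2, leaving out epithelium A gave an adjusted p of 0.00795 (range 0.00795 to 0.680 over 13 alternatives), with a log2 difference of -4.21.

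The splicing, sorting and protease genes were all higher in the sorted epithelium. Esrp1 counted 12.4, 10.3, 5.06, 8.13 and 5.13 CPM in the E11.5 controls (log2 4.10, SE 0.41, edgeR adjusted p = 6.91e-04). Esrp2 counted 16.1, 17.4, 9.48, 10.5 and 6.22 CPM (log2 2.63, SE 0.38, edgeR adjusted p = 0.00370). Both paralogs were below epithelium in every control trachea. Ap1m2 counted 19.7, 18.8, 15.3, 12.1 and 11.51 CPM (log2 3.25, SE 0.24, edgeR adjusted p = 3.18e-04). St14 counted 27.4, 31.7, 13.9, 21.2 and 12.8 CPM (log2 3.35, SE 0.33, edgeR adjusted p = 6.28e-04). Neither overlapped with epithelium. Spint1 counted 18.4, 20.7, 11.3, 9.03 and 8.25 CPM (log2 3.18, SE 0.38, edgeR adjusted p = 0.00161). Spint2 counted 69.9, 66.5, 47.2, 65.4 and 35.5 CPM (log2 3.35, SE 0.28, edgeR adjusted p = 3.97e-04). Both inhibitors were below epithelium in all 5 control tracheas.

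Levels were also described relative to Cdh1 in the same library, for the 32 other genes at 1 CPM or more in both epithelium libraries. Whole trachea also holds mesenchyme, so a ratio there is not one within epithelium. Cdh1 itself differed by log2 4.10 between these groups, beside a median of 3.06 over the 36 members tested. A reference with so large a difference sets most ratios below 0. The median difference of E13.5 epithelium from E11.5 control was -0.98 on the log2 scale, beside -4.11 over all 10974 genes chosen the same way, where Cdh1 itself was called higher in epithelium. Of the 32 genes, 15 were below -1, 0 above 1 and 17 within, and for 20 genes (62.5%) both epithelium libraries were below all 5 controls, beside 97.4% of all genes. The ratios that differed least between the stages were those of Epcam (-0.083), Cldn8 (-0.085), Esrp1 (-0.094), Cldn3 (0.163) and Cldn7 (-0.207). The lowest values were those of genes also counted in the mesenchymal sorts: Dsc2 (-6.35), Tjp1 (-4.00), Cdh3 (-3.30) and Jup (-3.23). The Dsc2 ratio differed widely between the 2 epithelium libraries (SD 2.49), which counted 23.1 and 1.76 CPM. Cldn18, a claudin of stomach and lung, was at -3.15 and Dsp at -2.65. No test was run on these ratios.

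**Figure D3:**
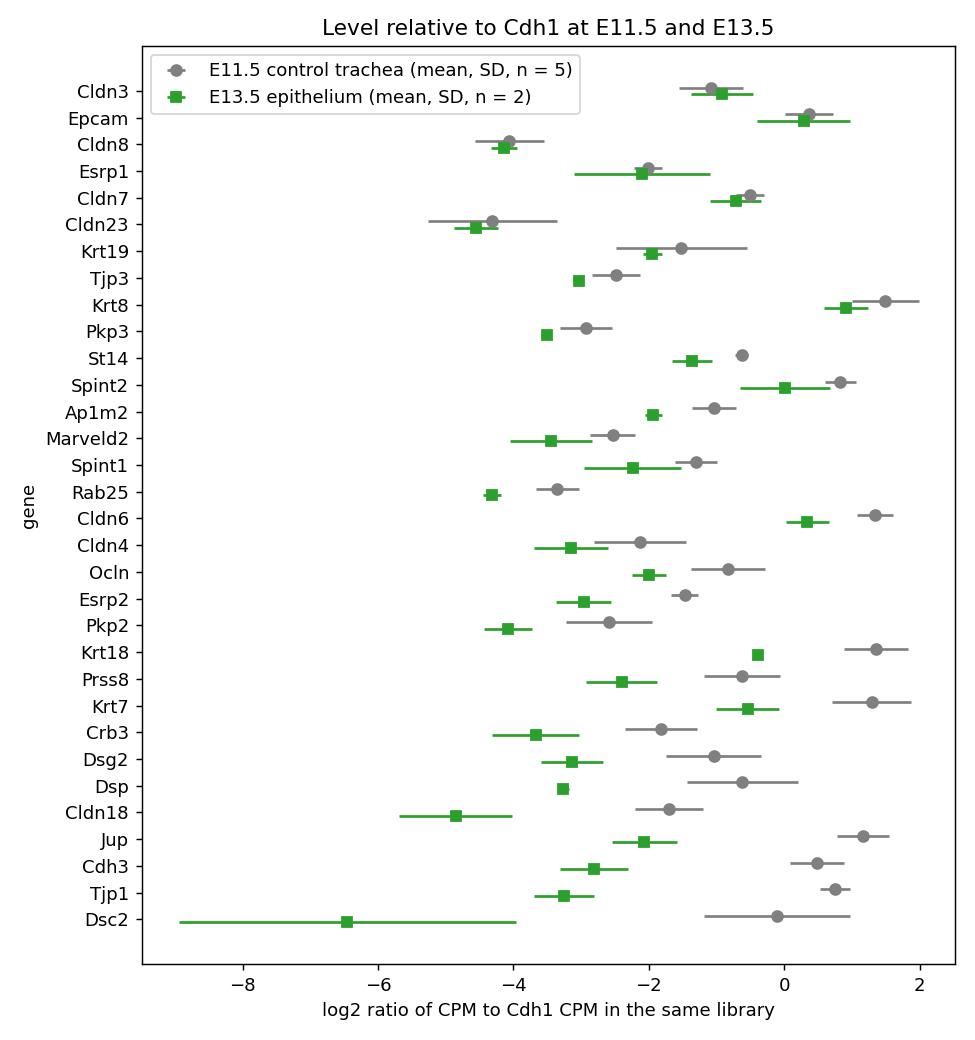
Log2 ratio of each gene to Cdh1 in the same library, as mean and SD, in E11.5 control trachea (n = 5) and E13.5 epithelium (n = 2). Most genes have a lower ratio in E13.5 epithelium, which the choice of Cdh1 favours, by most for Dsc2 and Tjp1. Epcam, Cldn8, Esrp1, Cldn3 and Cldn7 differ least.

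The plot of ratios to Cdh1 shows all 32 genes beside the cadherin in the sorted tube and the whole organ. Mesothelium, the covering of organs, also carries keratins and desmosomes, and its 6 markers summed to 168, 62.3, 79.9, 300.0 and 282 CPM in the E11.5 controls and 8.96 and 4.49 in E13.5 epithelium. Upk3b was the most abundant of them. The part of mesothelium in the E11.5 levels was not tested.

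Libraries labelled Wnt5a mutant were compared with control at E11.5, to ask whether the epithelial genes differ. No member was called, and the counts described here show the direction of the libraries only. Of the 38 genes 36 were tested, all but Krt5 and Pkp1. edgeR called 0 higher and 0 lower, beside 0.0136% and 0.0% of all 14663 genes. At an unadjusted p under 0.05, each also over 1.5-fold, 4 were higher (Cdh1, Cldn6, Cldn7, Rab25) and 2 lower (Dsc2, Krt14), beside 1.19% and 2.53% of all genes. DESeq2 called 0 and 0, beside 0.198% and 0.0751% of all genes. The median log2 difference over the 36 was 0.44, beside -0.02 over all genes, with 24 above and 12 below 0. Mutant A stood apart, with a summed level of the 38 genes of 1507 CPM, against 998, 841 and 1065 in the other mutants. By role the medians were 0.18 for adherens genes, 0.22 for keratins, 0.45 for tight junction genes, -0.40 for desmosomal genes, 0.49 for splicing and sorting genes and 0.46 for protease genes.

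Dsc2 had the smallest unadjusted p, at 24.7, 17.9, 17.3, 51.8 and 50.9 CPM in the controls and 14.7, 13.9, 12.9 and 9.43 in the mutants. All 4 mutants were below all 5 controls, with a log2 difference of -1.36 (SE 0.37, unadjusted p = 0.00357, edgeR adjusted p = 0.927). Cldn6 counted 106, 94.2, 76.3, 73.2 and 53.4 CPM in the controls and 214, 109.9, 88.6 and 127 in the mutants, with overlap (log2 0.74, SE 0.26, edgeR adjusted p = 1.000). Cdh1 counted 39.9, 47.0, 23.1, 31.7 and 21.002 CPM in the controls and 52.9, 73.0, 32.9 and 58.9 in the mutants, with overlap (log2 0.74, SE 0.28, edgeR adjusted p = 1.000). For both genes mutant C was the lowest mutant and lay within the range of the controls. Cldn7 counted 29.0, 27.0, 16.6, 21.2 and 17.9 CPM in the controls and 60.8, 35.8, 20.9 and 33.9 in the mutants, with overlap as well (log2 0.75, SE 0.29, edgeR adjusted p = 1.000). Leaving out each library in turn gave log2 differences of 0.424 to 0.913 for Cldn6, 0.571 to 0.925 for Cdh1 and 0.427 to 0.976 for Cldn7. Marveld2, tricellulin, counted 5.68, 6.87, 5.86, 5.38 and 3.58 CPM in the controls and 9.12, 6.98, 7.64 and 7.48 in the mutants, and Rab25 counted 3.65, 3.86, 3.25, 2.62 and 2.18 CPM in the controls and 6.73, 4.04, 4.90 and 5.11 in the mutants. For these 2 genes, chosen after their values were seen, all mutants were above all controls. The share of all genes without overlap was not counted, so nothing is read from that of these 2 genes or of Dsc2. Krt14 counted 13.501, 2.16, 7.03, 10.7 and 25.7 CPM in the controls and 6.03, 5.84, 1.03 and 0.580 in the mutants, with overlap (log2 -1.80, SE 0.78, edgeR adjusted p = 1.000).

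**Figure D4:**
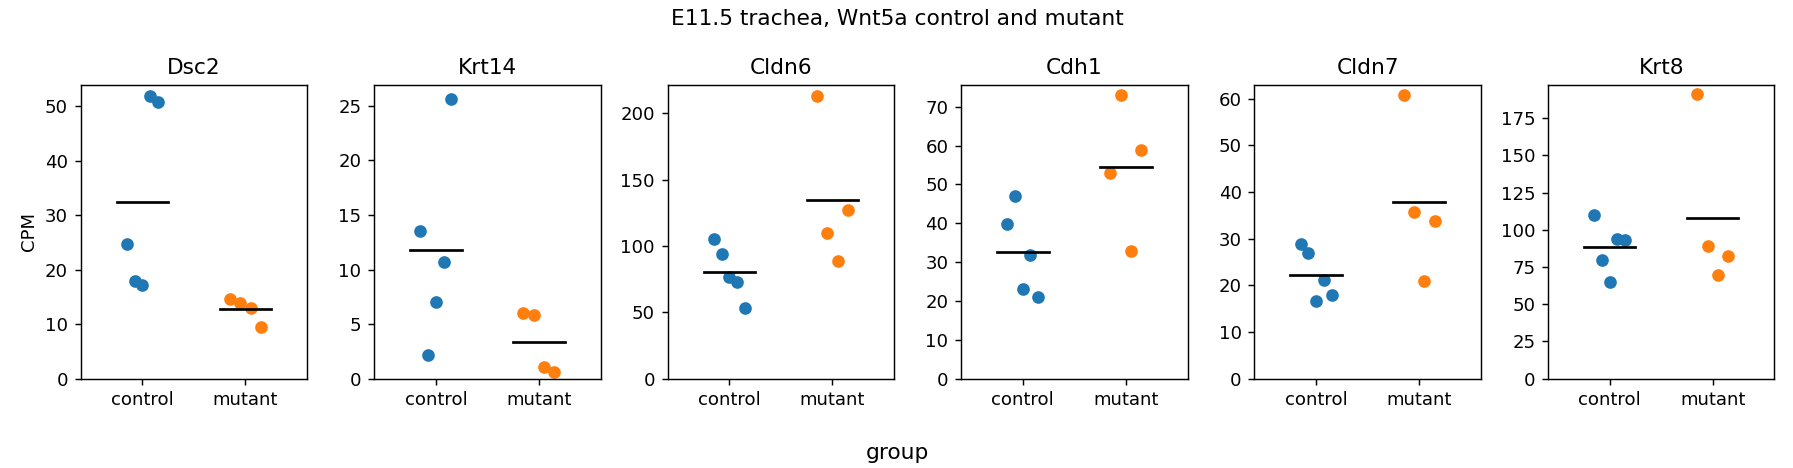
Level in CPM of Dsc2, Krt14, Cldn6, Cdh1, Cldn7 and Krt8 in each E11.5 library, control (n = 5) and Wnt5a mutant (n = 4), with lines at the means. Dsc2, named for the smallest unadjusted p, is lower in all 4 mutants than in any control, and the groups overlap for the other 5 genes. The share of all genes without overlap was not counted.

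The plot of E11.5 libraries shows these genes with Krt8, which like Krt14 was added after values were seen. Krt8 counted 110.1, 79.9, 65.2, 93.9 and 93.5 CPM in the controls and 191, 89.0, 69.6 and 82.1 in the mutants, of which mutant A was above all others. Markers of other tissues were counted in the same libraries. The 6 markers of mesothelium summed to 168, 62.3, 79.9, 300.0 and 282 CPM in the controls and 106, 124, 55.8 and 31.8 in the mutants. Of the 5 tested, edgeR called 0, 2 were lower at an unadjusted p under 0.05, and DESeq2 called 1 (Lrrn4) lower. Beside this list and the next, 1.71% of all genes were higher and 2.87% lower at an unadjusted p under 0.05. Controls A, D and E were high for the mesothelial sum and also the highest controls for Dsc2 and Krt14, and the part of mesothelium in either gene was not tested. The 6 markers of thyroid, thymus and parathyroid summed to 7.30, 4.76, 9.96, 15.2 and 14.3 CPM in the controls and 30.5, 45.9, 10.7 and 23.3 in the mutants, with overlap. Of the 2 tested, edgeR called 0, 1 was higher (Hhex) and 1 lower (Tg) at an unadjusted p under 0.05, and DESeq2 called Hhex higher. The part of neighbouring endoderm in the genes with higher counts in the mutants was not tested.

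Notum mutant chondroblasts were compared with control chondroblasts, where epithelial genes are present as traces. No member was called. Of the 38 genes 18 were tested, and 6 of these (Dsp, Dsg2, Krt7, Krt14, Pkp3, Marveld2) passed the filter only through the Notum libraries and Tjp3 only through the controls, so nothing is read from the counts over members. edgeR called 0 higher and 0 lower, beside 0.0% and 0.0% of all 14120 genes. At an unadjusted p under 0.05, each also over 1.5-fold, 1 was higher (Dsp) and 2 lower (Tjp3, St14), beside 5.51% and 2.9% of all genes. DESeq2 called 0 and 0, beside 2.51% and 1.22% of all genes. The control chondroblasts are those of the comparisons above.

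Tjp3 counted 1.52 and 9.49 CPM in the controls and 0.728, 0.146 and 0.926 in the mutants, all 3 below both controls (log2 -3.16, SE 1.08, edgeR adjusted p = 0.337). Dsp counted 0.405 and 0 CPM in the controls and 3.82, 0.876 and 2.29 in the mutants, all 3 above both controls (log2 3.43, SE 1.39, edgeR adjusted p = 0.389). Both genes are at trace levels here, far under epithelium. St14 counted 2.38 and 5.60 CPM in the controls and 0.637, 1.02 and 1.61 in the mutants, all 3 lower (log2 -1.85, SE 0.75, edgeR adjusted p = 0.390). Krt8 counted 6.22 and 10.6 CPM in the controls and 3.55, 2.92 and 4.92 in the mutants, all 3 lower (log2 -1.13, SE 0.49, edgeR adjusted p = 0.416). The 2 controls differed from each other more than 5-fold for Tjp3, and for Krt8 the mutants lay just under them. These 4 genes were named for the smallest unadjusted p. The share of all genes without overlap was not counted, so nothing is read from the lack of overlap here. Leaving out each library in turn gave log2 differences of -3.95 to -1.31 for Tjp3 and 2.52 to 8.48 for Dsp. The ranges were -2.34 to -1.11 for St14 and -1.465 to -0.697 for Krt8. Tjp3 passed the filter only through the controls and Dsp only through the Notum libraries, so nothing is read from a call of either. Without chondroblast A, which leaves 1 control and only libraries of the later date, Tjp3 was at log2 -3.95 and Dsp at log2 8.48. For Dsp this is a fitted value over the 1 control left, which is at 0, and is no bound. The number of genes called among all tested went from 0 to 2540 with that library left out and to 106 without chondroblast B. Markers of mesothelium summed to 17.95 and 7.17 CPM in the controls and 52.1, 1.61 and 35.5 in the mutants, high in Notum A and C as were Krt14 and Dsc2. Krt14 counted 3.05, 0.146 and 3.65 CPM and Dsc2 7.51, 1.90 and 6.97 CPM in the mutants, and the part of mesothelium in them was not tested. The 6 heart muscle markers summed to 5.16 and 10.4 CPM in the controls and 80.2, 16.1 and 23.0 in the mutants, without overlap. Of 4 heart genes tested edgeR and DESeq2 called 0, and 2 were higher at an unadjusted p under 0.05. Thyroid, thymus and parathyroid markers summed to 4.50 and 0.896 CPM in the controls and 6.01, 14.0 and 13.8 in the mutants. The part of such cells in the traces was not tested. The 5 leukocyte markers summed to 179.9 and 152 CPM in the controls and 249, 204 and 351 in the mutants. Of these 5, all tested, edgeR called 0, and 1 (Csf1r) was higher at an unadjusted p under 0.05 and by DESeq2. Beside these lists, 6.997% of all genes were higher and 5.48% lower at an unadjusted p under 0.05.

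**Figure D5:**
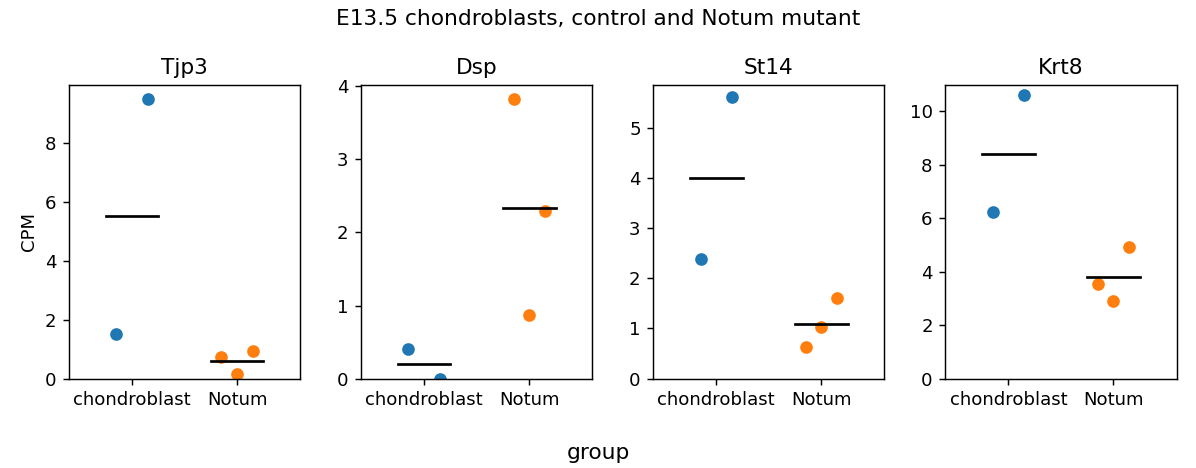
Level in CPM of Tjp3, Dsp, St14 and Krt8 in each E13.5 chondroblast library, control (n = 2) and Notum mutant (n = 3), with lines at the means. The 4 genes were named for the smallest unadjusted p, so nothing is read from the groups not overlapping for any of them. No difference passed the test.

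The plot of chondroblast libraries shows that all 4 genes were under 11 CPM in each of them. Other genes of the same biology, from lists that do not include the 38, gave the setting in the comparison of epithelium with muscle. As for the 38, genes that passed the filter through 1 group alone are marked, and nothing is read from a count that holds them. Of 33 other junction and polarity genes, 27 were tested, and edgeR called 7 higher and 0 lower (17 and 0 at an unadjusted p under 0.05, and 15 and 0 by DESeq2). Beside these and the list counts that follow for muscle stand 1.17% higher and 2.41% lower of all genes by edgeR, 8.02% and 10.3% at an unadjusted p under 0.05, and 5.37% and 7.98% by DESeq2. Of the 7 called, Cgn and Ppl passed through epithelium alone. Cgn, cingulin of the tight junction, counted 74.4 and 94.8 CPM in epithelium and 1.19 and 0.882 in muscle. Lsr, the angulin of tricellular contacts, counted 259 and 312 CPM in epithelium and 11.6 and 31.2 in muscle (log2 3.75, SE 0.49, edgeR adjusted p = 0.0155). Cd24a, a surface glycoprotein, counted 813 and 687 CPM in epithelium and 143 and 174 in muscle (log2 2.25, SE 0.20, edgeR adjusted p = 0.00502). Neither the tight junction genes nor Cd24a overlapped, and Cd24a was high in chondroblasts too (367 and 320.5 CPM).

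Among epithelial regulators, 8 of 9 were tested, and edgeR called 0, with 5 higher at an unadjusted p under 0.05 and 5 by DESeq2. Of the 8, Grhl1, Grhl2, Ovol1, Ovol2, Elf3 and Klf5 passed through epithelium alone and Grhl3 through muscle alone. Grhl2, which maintains junction genes, counted 80.9 and 112 CPM in epithelium, 2.79 and 0.0630 in muscle and 0.152 and 0.149 in chondroblasts. Klf5 counted 60.9 and 96.5 CPM in epithelium and 3.62 and 0.567 in muscle, and Ovol2, a repressor of Zeb genes, 8.14 and 20.0 CPM in epithelium and 0 and 0 in muscle. These 3 were high in both epithelium libraries. Grhl3 was not, at 19.7 and 0 CPM in epithelium and 53.3 and 5.29 in muscle, with the highest value in muscle A. Of 10 repressors and mesenchymal adhesion genes, all tested, edgeR called 5 lower (Cdh11, Snai1, Vim, Zeb1, Zeb2) and 0 higher in epithelium, with 9 lower and 0 higher at an unadjusted p under 0.05 and by DESeq2. Zeb2, which represses Cdh1, counted 7.52 and 3.13 CPM in epithelium and 102 and 85.4 in muscle (log2 -4.11, SE 0.55, edgeR adjusted p = 0.0168). Vim, vimentin, counted 74.5 and 96.8 CPM in epithelium and 579 and 499 in muscle, and Cdh11, a mesenchymal cadherin, 63.1 and 40.0 in epithelium and 416 and 477 in muscle. Zeb2, Vim and Cdh11 were thus lower in the sort that was high for Cdh1. Against E11.5 control trachea edgeR called 14 of 30 other junction genes higher and 0 lower (20 and 0 at an unadjusted p under 0.05 and by DESeq2), 7 of 8 regulators higher and 8 of 10 repressors and mesenchymal genes lower, beside 7.65% higher and 9.41% lower of all genes (14.9% and 18.04% at an unadjusted p under 0.05, and 10.8% and 17.2% by DESeq2). Of the regulators Ovol2 and Ehf passed the filter through epithelium alone there, and of the repressors and mesenchymal genes Snai2, Twist1 and Twist2 through E11.5 trachea alone. Nothing is read from these counts.

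Of 8 other keratins 2 were tested against muscle, and edgeR and DESeq2 called 0, with 0 at an unadjusted p under 0.05. Krt10 counted 15.4 and 17.5 CPM in epithelium and 18.5 and 16.1 in muscle, and Krt1 1.63 and 10.2 in epithelium and 1.60 and 1.95 in muscle. Krt10 did not separate the sorts, and Krt1 was highest in epithelium B. Of 7 airway epithelium genes 6 were tested and 2 called higher (Foxa2, Wnt7b), both among the 5 that passed through epithelium alone. Wnt7b, a ligand of the airway epithelium, counted 222 and 508 CPM in epithelium and 4.34 and 1.01 in muscle. All 6 smooth muscle genes were called lower in epithelium, of which Myocd passed through muscle alone, with Cnn1, calponin, at 0.479 and 0.912 CPM against 1158 and 1059. Of 6 chondroblast genes tested 1 (Col9a1) was called lower, and Sox9, the factor of chondrogenesis, counted 52.3 and 39.5 CPM in epithelium and 206 and 456 in muscle, with Acan, aggrecan, at 0.240 and 0 CPM in epithelium and 9.39 and 5.10 in muscle.

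Markers of other cell types that a gate could hold were counted in the same comparison. Of 6 mesothelium genes 2 were tested and edgeR called 0 (1 higher at an unadjusted p under 0.05 and 1 by DESeq2, Upk1b at 5.08 and 1.43 CPM in epithelium). Of 7 endothelium genes 5 were tested and 0 called (1 lower unadjusted and 1 by DESeq2, Tek at 0.431 and 0 CPM against 15.9 and 19.3), with Cdh5 at 0.0479 and 0 and Emcn at 0 and 0.260 CPM in epithelium. Of 5 leukocyte genes, all tested, edgeR, the unadjusted threshold and DESeq2 each gave 0, and their sum was 177 and 0 CPM in the epithelium libraries, 0.357 and 75.7 in muscle and 179.9 and 152 in chondroblasts. Csf1r, the macrophage receptor, was their most abundant gene in epithelium A at 91.3 CPM, with Tyrobp at 35.6 and 0 and Adgre1 at 15.9 and 0. Leukocyte genes were thus present in epithelium A, muscle B and both chondroblast libraries, at 0 in epithelium B and close to it in muscle A. Of 6 heart muscle genes 5 were tested and 2 called lower (Myl4 and Tnnt2, of which Tnnt2, like Myl7 and Nppa, passed through muscle alone), at 0.335 and 0.0651 against 81.6 and 60.0 CPM for Myl4, 0.671 and 0.326 against 96.7 and 56.9 for Tnnt2 and 0.0479 and 0.260 against 2.08 and 2.08 for Nppa. Of 5 distal lung genes 4 were tested and 1 called higher (Id2, 941 and 890.3 against 371 and 515 CPM), with Bex1 at 146 and 124 against 42.7 and 14.4. Id2 was high in all sorts. Of 6 genes of thyroid, thymus and parathyroid 3 were tested, edgeR called 0, and 3 were higher at an unadjusted p under 0.05 and by DESeq2, all of which passed through epithelium alone. Their sum was 268 and 28.3 CPM in the epithelium libraries, with Hhex at 172 and 11.01 CPM, Pax8 at 78.1 and 2.08 and Tg at 12.8 and 15.2. Epithelium A was high for Hhex and Pax8 and also for Dsc2 and Krt15, and epithelium B was low for all 4. The part of neighbouring endoderm or leukocytes in the epithelium A values was not tested.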

How the data were processed

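Estimated counts per entry (expected counts, fractional in 54.1% of the values used) were deposited by the authors in 1 table of 47248 entries and 26202 symbols from bulk RNA sequencing. The submitters' processing notes name Partek, limma and mm10, the study's methods name DESeq2, and the aligner and annotation are not given in the sources used here. Of 22 columns, 18 were matched to groups, and 4 per-sample columns that match no label were not used. Counts were summed per symbol and rounded. The libraries' strand was not tested, and how reads shared among keratin or claudin paralogs and pseudogenes were assigned was not tested.

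edgeR 4.0.16 (TMM, quasi-likelihood test, 2-sided, Benjamini-Hochberg over all genes tested) was run in R 4.3.3, with limma 3.58.1 and DESeq2 1.42.0 as the alternative test. A gene was tested where most libraries of at least 1 group in the fit had 1 CPM or more. The fits held 6 libraries and 13687 genes for the sorted populations, 9 and 14663 for Wnt5a, 5 and 14120 for Notum, and 7 and 14628 for epithelium against E11.5 trachea. CPM in the text use TMM factors over all 18 libraries, and the filter uses CPM without them. The floor for a count of 0 is 3 counts per library. Code was tested on simulated counts.

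Members and lists were chosen with earlier results of these data known. The lists reported are the roles adherens, keratin, tight junction, desmosome, splicing and sorting and membrane protease, and other junction and polarity genes, other keratins, epithelial regulators, repressors and mesenchymal adhesion genes, airway epithelium, smooth muscle, chondroblast, mesothelium, endothelium, leukocyte, heart muscle, distal lung epithelium, and thyroid, thymus and parathyroid. Named genes were the 2 or 3 highest members of each role by mean epithelial CPM, members on at E11.5 and off at E13.5 or the reverse, and the 5 highest shares in muscle or chondroblasts. They also include up to 4 members with the smallest unadjusted p in the Wnt5a and Notum comparisons, and up to 3 genes of each other list with the smallest p in epithelium against muscle. Alternatives were DESeq2, its size factors, library size without TMM, other filters, all libraries in 1 fit, replicate blocks, other thresholds, Epcam as the reference, and leaving out each library.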

Additional observations from a re-analysis of the deposited data

Results flagged for a closer look

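In 5 of 74 groups of 4 or 5 libraries, 1 library lay far from the rest of its group, with a gap that is large for the group's range. Chance gives about 1 in 20. Krt7 counted 117 CPM in Wnt5a mutant A, against 46.8 to 55.5 in the other mutants. Krt8 counted 191 CPM in mutant A, against 69.6 to 89.0. Cldn8 counted 13.1 CPM in mutant A, against 1.82 to 3.00. Jup counted 26.2 CPM in mutant A, the lowest of its group, against 72.3 to 78.7. Dsg2 counted 5.97 CPM in E11.5 control C, against 17.6 to 22.3 in the other controls. Of the 5 values, 4 were in mutant A.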

How the results depend on the processing

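Of 1263 values for 97 results on named genes, 1127 kept their direction and their side of the threshold, 57 newly passed it, 49 no longer passed and 30 changed sign. The cause of a change was not tested, other than that leaving out a library or a filter also changes the number of samples or genes tested. A lone sample left by leaving out a library is assumed to vary like the other groups. An alternative gives no value for a gene that its filter dropped. Depth limits the traces in mesenchyme, many of which rest on counts near the floor.

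Without a filter on low counts, members called against muscle were 31 higher and 1 lower (1620 genes in all), against chondroblasts 31 and 1 (1463), and in muscle against chondroblasts 4 and 4 (305). DESeq2 gave 28 higher against muscle (1827 genes), 29 against chondroblasts (1554), and 3 higher and 2 lower in muscle against chondroblasts (255). With all 18 libraries in 1 fit the counts were 30 and 1 (3576), 30 higher (2961), and 1 and 2 (532). In the Wnt5a comparison the genes called were 5 without TMM factors, 9 without a filter, 40 by DESeq2 and 0 in the single fit, with 0 members in each. In the Notum comparison they were 42 without a filter, 526 by DESeq2 and 9 in the single fit. Epithelium against E11.5 trachea gave 4080 genes by DESeq2. The count of genes on at E11.5 and off at E13.5 was 1 for both epithelium libraries, and 1 for the E13.5 controls without TMM factors (both Krt14). St14 in muscle against chondroblasts turned to 0.001 with a minimum of 10 counts.

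Column names share numbers or dates, which were tried as a replicate block, since shared numbers need not mean litter pairs. Correlations of residuals within shared numbers were 0.51, 0.19, 0.14 and 0.09, and for dates -0.01, 0.15 and 0.12. Each of the 8 numbered E11.5 libraries correlated best with its own number in the other group, which is a hint from the data and not the design. With the date as a block, 15 members were higher against muscle and 18 against chondroblasts, and Cdh3 (-0.26) and Dsc2 (-0.006) changed sign in muscle against chondroblasts. With the number as a block the Wnt5a comparison gave 1 gene and 0 members. The block on the number, the on and off counts for single groups of libraries, and leaving out libraries for the descriptions without a test were chosen after seeing the data.

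Leaving out each library in turn gave 11 to 16 members higher and 0 to 1 lower against muscle (162 to 1197 genes), 3 to 17 and 0 to 1 against chondroblasts (20 to 1038 genes), and 2 to 22 genes in muscle against chondroblasts with 0 members. It gave 0 to 3 genes for Wnt5a, 0 to 3 members higher, 0 to 1 lower and 0 to 2540 genes for Notum, and 1 to 4 members lower and 1442 to 7075 genes for epithelium against E11.5 trachea. The count on at E11.5 and off at E13.5 ran from 0 to 1, the median share in muscle from 0.174% to 0.622%, and the median relative to Cdh1 from -1.31 to -0.86. Log2 differences that changed sign ran from -0.35 to 0.49 for Tjp1 and -1.36 to 10.77 for Dsc2 against muscle, and from -0.26 to 0.58 and -1.18 to 2.56 against chondroblasts. Tjp1 ran from -0.28 to 0.53 in epithelium against E11.5 trachea. In muscle against chondroblasts the ranges were -10.34 to 1.63 for Cdh3, -0.36 to 3.18 for Krt7, -0.78 to 0.56 for Krt18, -5.69 to 4.09 for Cldn3, -1.67 to 2.23 for Cldn6 and -7.12 to 0.86 for Cldn7. They were -0.18 to 0.44 for Tjp1, -3.91 to 0.76 for Tjp3, -0.75 to 7.89 for Dsp, -9.10 to 1.18 for Dsc2, -3.21 to 0.058 for Esrp1 and -0.92 to 7.12 for Esrp2. They were -5.88 to 0.99 for St14, -2.21 to 3.70 for Spint1 and -5.74 to 2.33 for Ap1m2.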
